A study of Mus musculus with 2 samples.

Results

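The genes described here are the 85 protein-coding genes of the proteins of the cytosolic ribosome, chosen by symbol from the 55536 genes of the annotation, of which 21951 were protein-coding. A gene was a member if its symbol was Rpsa, Rplp0, Rplp1 or Rplp2, or began with Rpl or Rps and a digit. S6 kinase genes, symbols containing bp and symbols with the pseudogene suffix -ps were left out. The rule uses no measured value, but it was set with earlier results of these data known. Of the members, 52 belong to the large and 33 to the small ribosomal subunit. In 8 of them the symbol adds l, l1, al or rt to the number of another member (Rpl10l, Rpl22l1, Rpl36al, Rpl39l, Rpl3l, Rpl7l1, Rps27l and Rps27rt); these are called paralogs here, and the other 77 core members (46 large, 31 small). The members lie on 19 chromosomes.

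The samples were total RNA from heart tissue of male B6CASTF1/J mice, the F1 hybrid of a C57BL/6 and a CAST/Ei parent, at 25 days of age. There were 2 hearts in 1 group, with no treatment, no engineered allele and no contrast group named in the labels. Each library was made from 300 ng of RNA with ERCC spike-ins. The labels number the biological replicates separately but give both the same donor identifier, so that differences between the libraries may be technical or biological. With 2 values in 1 group an exact sign-flip test cannot give a p below 0.5, and the values are therefore given as descriptions for each heart. All 8 heart muscle markers listed (Myh6, Actc1, Tnnt2 and others) had a mean over the hearts of 344 TPM or more.

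Ribosomal proteins are made in the cytoplasm, carried to the nucleolus and assembled there on ribosomal RNA into a small subunit, which decodes messenger RNA, and a large subunit, which forms the peptide bond. Most are needed in equal number in each ribosome. Their messenger RNAs typically start with a run of pyrimidines that couples their translation to mTOR, and their genes are copied in mammalian genomes into many processed pseudogenes, which are intronless copies of the messenger RNA. Striated muscle is known for Rpl3l, a second form of the large subunit protein Rpl3, which sits near the peptidyl transferase centre.

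The depth was 38253821 estimated counts over genes in replicate 1 and 40655101 in replicate 2, and 3 counts correspond to 0.0784 and 0.0738 CPM (counts scaled to library size). The same reads were quantified in 2 ways. The first, used throughout unless stated, gives estimated counts and TPM (relative transcript number, corrected for transcript length and for library size) from reads aligned to the transcriptome. The second gives the same units directly from the reads. The 2 can divide reads between near-identical sequences differently, and the sequences of the muscle pair and of a pseudogene show how alike such sequences are.

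The first 120 coding bases of Rpl3 (chr15:80077791-80091868, minus strand, GRCm38), of its paralog Rpl3l (chr17:24727820-24736143, plus strand) and of the processed pseudogene Rpl3-ps1 (chrX:13202571-13203780, plus strand) are printed from the GENCODE transcripts to show how far each can be told from Rpl3. Capitals mark the bases that differ from Rpl3.
Rpl3: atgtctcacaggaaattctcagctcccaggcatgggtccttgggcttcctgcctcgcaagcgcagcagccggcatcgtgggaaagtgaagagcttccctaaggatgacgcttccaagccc
Rpl3l: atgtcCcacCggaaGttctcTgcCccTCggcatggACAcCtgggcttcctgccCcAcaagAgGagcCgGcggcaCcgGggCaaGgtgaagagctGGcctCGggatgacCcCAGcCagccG
Rpl3-ps1: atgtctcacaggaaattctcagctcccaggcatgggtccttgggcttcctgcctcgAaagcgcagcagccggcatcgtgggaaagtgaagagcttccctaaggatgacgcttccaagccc
In this stretch Rpl3l differed from Rpl3 at 31 bases and the pseudogene at 1. Over the whole coding sequence Rpl3l and Rpl3 shared 896 of 1205 aligned bases (74.4%), and their longest identical run was 22 bases. The pseudogene differed from Rpl3 at 2 of 1209 bases, with an identical run of 728 bases. Rpl3l and Rpl3 thus differ all along their length, whereas Rpl3 and Rpl3-ps1 hardly differ.

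The members were abundant in both hearts. Their median level was 166 TPM in replicate 1 and 168 TPM in replicate 2, with quartiles of 96.1 and 214 TPM over the mean of both hearts. The median of all protein-coding genes was 1.08 and 1.09 TPM, and that of protein-coding genes at 1 TPM or more was 8.09 and 8.11 TPM. Of the 85 members, 83 (97.6%) were at 1 TPM or more in both hearts, against 49.7% of all protein-coding genes. The members held 0.650% of gene counts in replicate 1 and 0.667% in replicate 2 (0.658% ± 0.0119, SD, n = 2), and 1.12% of the counts of nuclear protein-coding genes. In whole tissue, fewer cells of a type and less RNA per cell cannot be told apart, so these levels are averages over all cells of the heart.

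Among complexes of like kind, the 78 mitochondrial ribosomal protein genes had median levels of 26.7 and 30.1 TPM in the 2 hearts. The 40 proteasome subunit genes had medians of 33.9 and 34.6 TPM. No core member was at 0, and 71 of 77 were at 50 TPM or more in both hearts, 59 at 100 TPM or more and 26 at 200 TPM or more. Small subunit core genes had medians of 179.8 and 181 TPM, and large subunit core genes 158.6 and 158.7 TPM. Members of 1 complex were not at 1 level. The coefficient of variation (SD over mean) of TPM among core members was 0.575 and 0.578 in the 2 hearts. It was 0.667 and 0.660 in the large and 0.445 and 0.464 in the small subunit. It was 0.796 and 0.782 among mitochondrial ribosomal and 0.666 and 0.668 among proteasome genes. No gene was left out of these 2 sets, and 36 of the 40 proteasome genes were at 1 TPM or more. With the paralogs kept, the value over all 85 members was 0.645 in each heart, close to that of the proteasome genes.

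**Figure D1:**
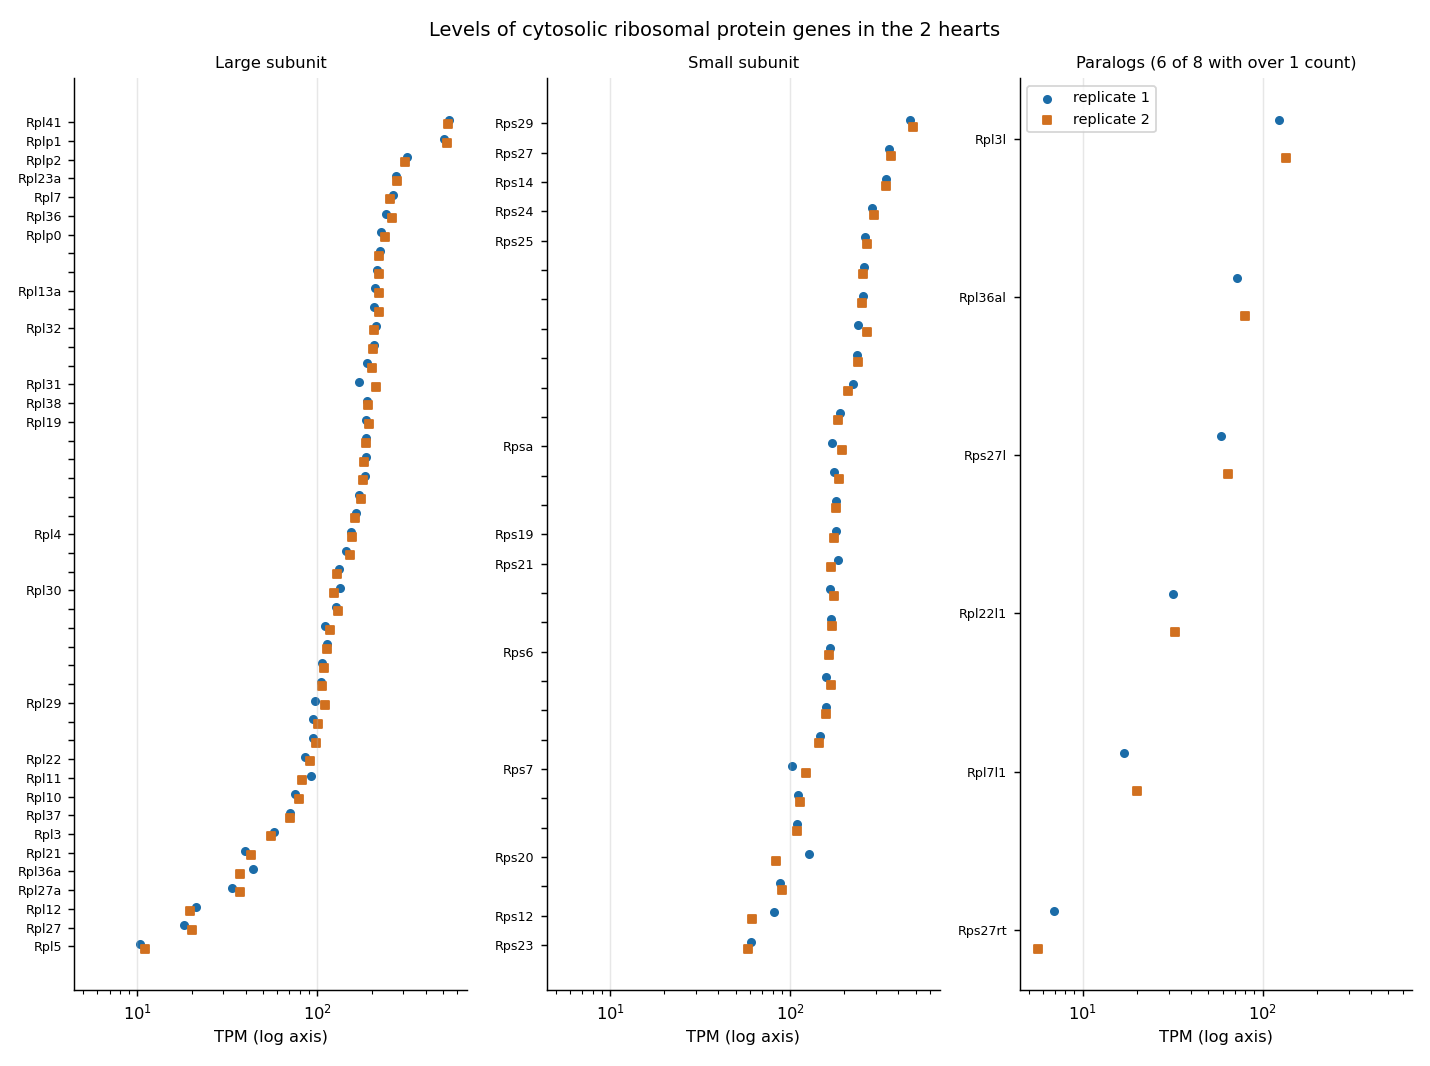
TPM (log axis) of core members of the large and small subunit and of the 6 paralogs with more than 1 count, ordered by mean, with the genes described in the text labelled; circles are replicate 1 and squares replicate 2. Most genes lie between 50 and 300 TPM, the marks of the 2 hearts nearly coincide, and Rps20 is the small subunit gene whose marks stand furthest apart.

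The highest member was Rpl41, a very short basic peptide of the large subunit, at 541 TPM in replicate 1 and 535 TPM in replicate 2. The acidic stalk protein Rplp1 was next, at 509 and 525 TPM. Its stalk partner Rplp2 was at 314 and 309 TPM, and Rplp0, the base of the stalk that recruits elongation factors, at 225 and 239 TPM. The most abundant small subunit genes were Rps29 at 464 and 484 TPM, Rps27 at 356 and 362 TPM, and Rps14 at 344 and 342 TPM. Rps24 (284 and 294 TPM) and Rpl23a (273 and 278 TPM) were also among the 10 highest. Over the 77 core members the correlation of TPM between hearts was r = 0.994 (Pearson, across genes of 2 libraries, as a description). Coding length and TPM were weakly related over core members (Spearman rho = -0.13, across genes, as a description).

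Among members with a stated role, Rps6, the substrate of the S6 kinases, was at 166 and 165 TPM. Rps19, the gene most often mutated in Diamond-Blackfan anaemia, was at 181 and 176 TPM. Rpsa, also known as the laminin receptor precursor, was at 170 and 195 TPM. Rpl11, which joins 5S ribosomal RNA together with Rpl5 and binds Mdm2 when assembly stalls, was at 92.2 and 82.3 TPM. Rpl5 itself was listed far below it, at 10.3 and 10.96 TPM.

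The lowest core members after Rpl5 were Rpl27 at 18.2 and 20.1 TPM, Rpl12 at 21.04 and 19.6 TPM, Rpl27a at 33.4 and 37.1 TPM, and Rpl36a at 43.9 and 37.0 TPM. Rpl21 (39.4 and 43.0 TPM), Rpl3 (57.5 and 55.3 TPM), Rps23 (60.6 and 58.6 TPM), Rpl37 (70.8 and 70.3 TPM) and Rps12 (80.98 and 61.8 TPM) were the other 5. Rpl10, a protein that joins the large subunit late, was next at 74.8 and 79.0 TPM. The 10 lowest all have near-identical copies elsewhere in the genome that were listed with reads of their own. This alone does not set them apart, since 68 of all 85 members had a copy with 10 counts or more in both hearts.

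Near-identical copies were defined, after the levels had been seen, as genes outside the rule with a transcript that matched at least 95% over at least 80% of a member's coding sequence on the same strand. There were 574: 541 processed pseudogenes, 15 transcribed processed pseudogenes, 16 genes annotated as protein-coding and 2 of other types. In 31 of them the aligned bases were identical to the member. Of the 574, 106 had 10 counts or more in both hearts, and 68 of the 85 members had such a copy. Copies held 21.4% of the counts of members and copies together in replicate 1 and 21.8% in replicate 2 (21.6% ± 0.282, SD, n = 2). In the second quantification they held 11.4% ± 0.332 (SD, n = 2), with 57 copies at 10 counts or more.

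Single copies were listed above their own source gene. Gm15500, a transcribed processed pseudogene with 100% identity to the coding sequence of Rpl5, had 4732 and 5007 counts in the 2 hearts, against 594.5 and 663 counts of Rpl5. Its level was 157 and 155 TPM. Gm11518 and Rpl27-ps3 were listed at the same 866 and 971 counts each, and Rpl27 at 317 and 394 counts; in the second quantification both copies were at 0. Rps23-ps1 had 2411 and 2575 counts against 832 and 851 counts of Rps23. Gm10275 had 1911 and 2042 counts against 626 and 647 counts of Rpl12. Copies with such identity leave the split of reads to the quantification method, and the counts of these genes alone are uncertain.

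With the levels of their copies added, the low members stood close to the others. Rpl5 went from 10.3 and 10.96 TPM to 168 and 166 TPM, Rpl27 to 188 and 197 TPM, Rpl12 to 160 and 160 TPM, and Rpl27a to 194 and 204 TPM. Rpl3 moved least of the 10 lowest, to 95.5 and 93.7 TPM. The median over core members went from 176 to 220 TPM and the lowest from 10.6 to 87.9 TPM. The ratio of the highest to the lowest core member fell from 50.6 to 6.35. The coefficient of variation went from 0.575 and 0.578 to 0.404 and 0.422. Within 2-fold of the core median were 60 of 77 genes alone and 68 of 77 with copies. How many of the added reads came from the copies' own loci was not tested.

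**Figure D2:**
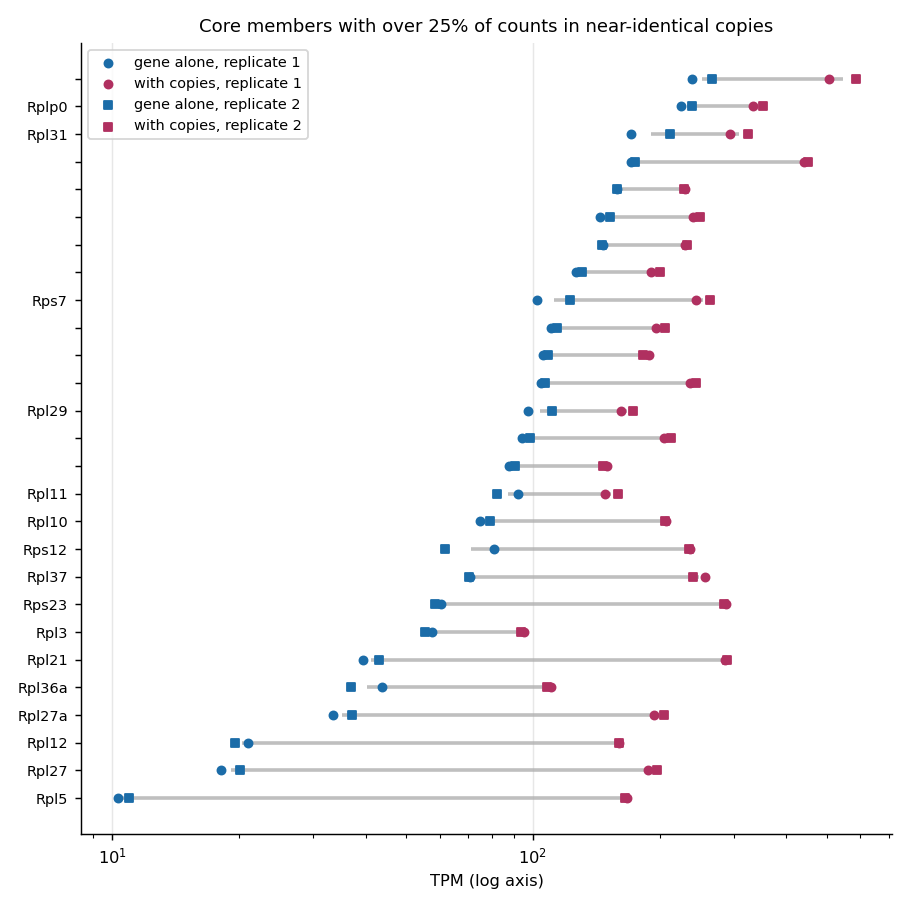
TPM (log axis) of core members with over 25% of counts in near-identical copies, alone (blue) and with the copies added (red); circles are replicate 1, squares replicate 2, grey bars join the means, and genes described in the text are labelled. The genes alone run from 10.6 TPM (Rpl5) to above 200 TPM, and with copies added every one lies at 87.9 TPM or more.

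The second quantification also gave a higher median over protein-coding genes at 1 TPM or more, 9.97 TPM against 8.13 TPM in the first (mean of both hearts). Among core members the difference was larger where a larger share of counts lay in copies. Among the 29 core members with under 5% of counts in copies, the median TPM was 213 in the first and 288 in the second quantification, a median difference of 0.38 on the log2 scale. Among the 12 with over 50% the medians were 65.1 and 228 TPM, a median difference of 1.99 on the log2 scale. The 20 genes at 5 to 25% (0.61) and the 16 at 25 to 50% (0.94) lay in between. Across the 77 core genes the share in copies and the log2 difference had r = 0.72 and Spearman rho = 0.59, as a description over genes of the same 2 libraries. Both quantities contain the gene's own value in the first quantification, and a low value there raises both. Part of this relation, and of the steps between the groups, is therefore built in, and how large a part was not tested. Among core members the largest differences were those of Rpl27 (3.31), Rpl5 (3.00), Rpl27a (2.84), Rps23 (2.41) and Rpl12 (2.14). Rpl19 (-1.497) and Rpl36 (-1.10) were the core members lower in the second quantification by more than 1. Of the counts of Rpl19 and its copies, the first quantification placed 3.72% and 3.18% in copies and the second 63.3% and 65.9%, chiefly in Rpl19-ps11. For Rpl36 these shares were 13.0% and 11.4% in the first and 34.1% and 33.3% in the second.

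**Figure D3:**
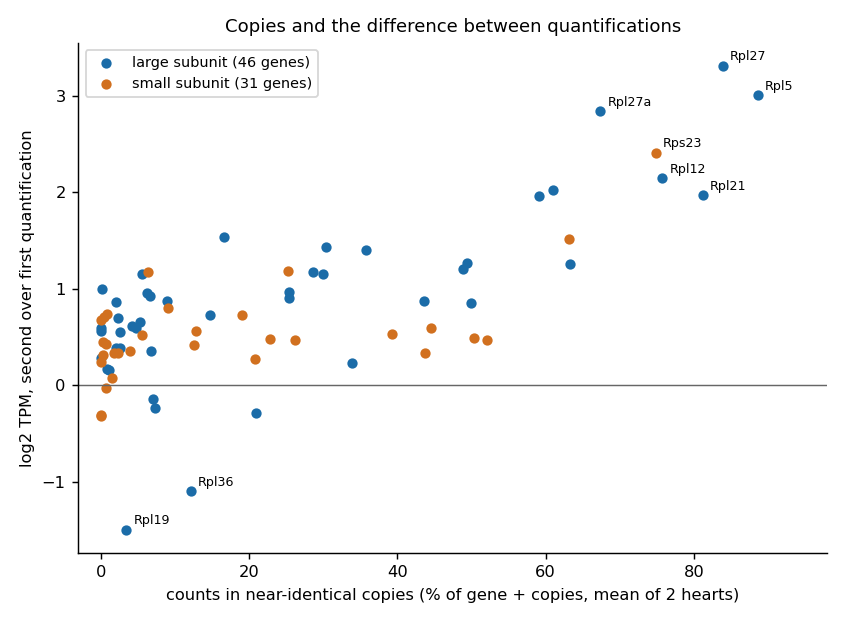
Log2 of TPM in the second over the first quantification (mean of 2 hearts) against the percent of counts in near-identical copies, 1 point per core member, blue for the large and orange for the small subunit. The highest points, up to 3.31 for Rpl27, are genes with most of their counts in copies, and Rpl19 (-1.497) and Rpl36 (-1.10) lie lowest. Both axes contain the gene's own value in the first quantification, so part of the relation is built in.

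Rpl3l, the form known from striated muscle, was listed above Rpl3 in both hearts. Its level was 123 TPM in replicate 1 and 134 TPM in replicate 2, against 57.5 and 55.3 TPM of Rpl3, and the values of the 2 genes did not overlap. The log2 ratio of TPM + 0.1 was 1.10 and 1.28 (1.19 ± 0.13, SD, n = 2), so that Rpl3l made 69.5% ± 1.88 (SD, n = 2) of the pair. Rpl3l has no near-identical copy, while 43.2% and 43.9% of the counts of Rpl3 and its copies were in copies, chiefly Rpl3-ps1 with 1371 and 1499 counts. With copies added to Rpl3 the log2 ratio was 0.44 ± 0.11 (SD, n = 2) and the share of Rpl3l 57.6%. The second quantification gave 0.74 ± 0.10 (SD, n = 2), and 0.23 ± 0.10 with copies. The direction was the same in both hearts in each of these, while the size differed between them. Most of Rpl3l was in transcript Rpl3l-202, at 97.3% and 95.2% of the gene's TPM, and at 85.7% and 76.0% in the second quantification. Markers of skeletal muscle, another source of Rpl3l, had a median of 0.09 and 0.10 TPM over 8 genes, with Myh1, Myh2 and Myog at 0 and Tnni2 highest at a mean of 1.39 TPM.

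The other paralogs were mostly below their partners. Rpl22l1 was at 31.6 and 32.7 TPM against 84.9 and 90.8 TPM of Rpl22, a log2 ratio of -1.45 ± 0.03 (SD, n = 2). Of the Rpl22l1 level, 77.8% and 75.4% lay in Rpl22l1-209, a processed transcript without an open reading frame. In the second quantification Rpl22l1-202, also a processed transcript, led with 48.6% and 40.3%. The ratios given here are of all transcripts of each gene, coding or not. Rps27l was at 58.4 and 64.4 TPM, a log2 ratio to Rps27 of -2.55 ± 0.08 (SD, n = 2). Rpl7l1 was at 17.1 and 20.03 TPM, a log2 ratio to Rpl7 of -3.80 ± 0.20 (SD, n = 2). These 3 pairs kept their direction with copies added and in the second quantification. For Rps27l the addition of copies changed nothing, since no copy was assigned to Rps27, and the ratio stayed at -2.55. Each copy was assigned to 1 member only. A copy that matched Rps27 and Rps27rt equally was assigned to Rps27rt, whose ratio to Rps27 (-5.82) was also unchanged with copies. Rpl36al was above Rpl36a, at 71.9 and 80.1 TPM against 43.9 and 37.0 TPM, a log2 ratio of 0.91 ± 0.28 (SD, n = 2). With the copies of both added this ratio was -0.50 ± 0.14 (SD, n = 2), and in the second quantification 0.03 ± 0.15 (SD, n = 2), with the 2 hearts on opposite sides of 0. Which of the pair was higher could not be settled from these files.

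Rps27rt, listed at 6.96 and 5.61 TPM, has a coding sequence identical to that of Rps27 over all 252 bases and was at 0 in the second quantification. Its separate level is uncertain. Rpl10l and Rpl39l, forms known from the testis, were at or near 0. Rpl10l had 0 counts in both hearts, where 3 counts would be 0.0784 and 0.0738 CPM, and Rpl39l had 1 count in replicate 1 and 0 in replicate 2. The testis markers Prm1, Prm2 and Tnp1 were also at 0, and the highest of the 5 testis markers had a mean of 0.04 TPM. Coding identity to the partner was 84.7% for Rpl10l, 85.0% for Rpl39l, 87.7% for Rpl36al, 76.2% for Rps27l, 70.2% for Rpl22l1 and 62.6% for Rpl7l1.

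**Figure D4:**
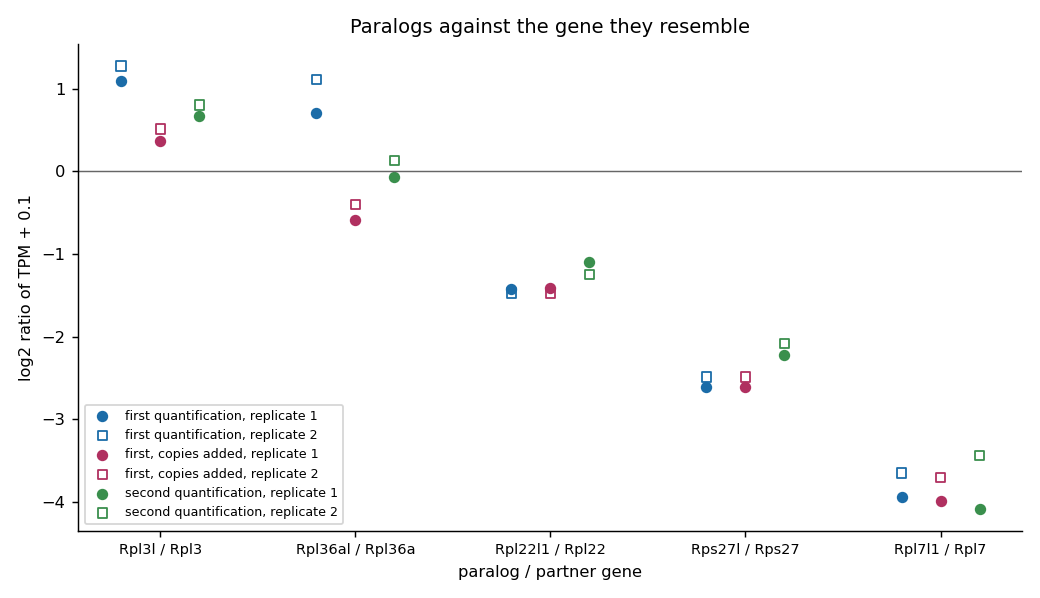
Log2 ratio of TPM + 0.1 of each of 5 paralogs to its partner, filled circles for replicate 1 and open squares for replicate 2, in the first quantification (blue), with near-identical copies added (red) and in the second quantification (green). Rpl3l lies above 0 in all 6 values (0.37 to 1.28), Rpl36al falls on both sides of 0, and Rpl22l1, Rps27l and Rpl7l1 lie below 0.

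The 2 hearts were then compared gene by gene, as log2 of replicate 2 over replicate 1 after TMM scaling of the counts, over genes at a mean CPM of 1 or more. This compares 2 libraries, not conditions, and intervals cover counting error only. Rpl10l and Rpl39l did not reach this level. None of the 83 members compared differed by 2-fold or more, where 1.18% of the 12913 genes compared did. At 1.5-fold, 1 member differed, where 4.52% of all genes did. The quartiles of the members were -0.07 and 0.03 and those of all genes -0.12 and 0.12. The members had a median of 2745 counts and all genes compared a median of 506, so that counting error was smaller for the members. The median was -0.02 over members and 0.01 over all genes, with 33 members above 0 and 50 below. Total counts gave 0.03 over members and 0.06 over all genes, and spike-ins -0.17 and -0.13. The scaling moved all genes alike, and the members' median stayed 0.03 below that of all genes on the log2 scale.

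**Figure D5:**
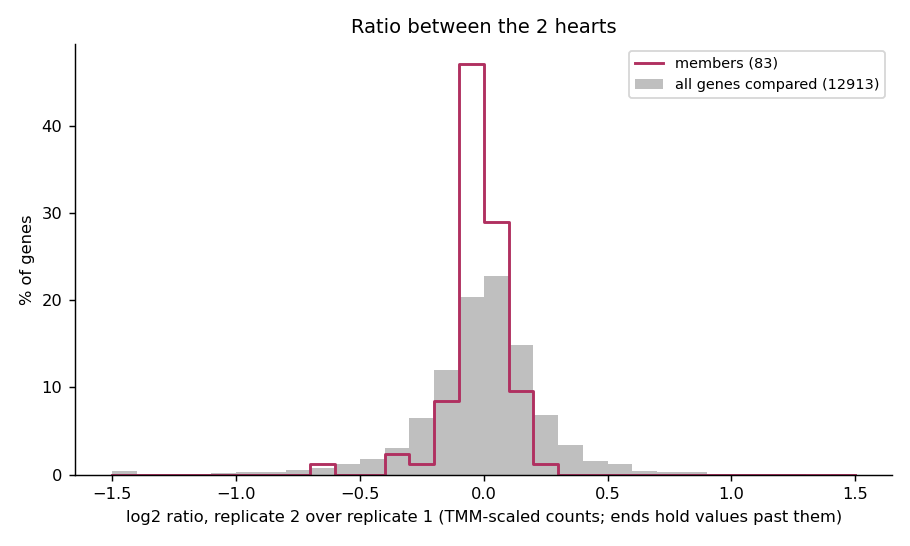
Percent of genes per bin of the log2 ratio of replicate 2 over replicate 1 (TMM-scaled counts) for all 12913 genes compared (grey) and the 83 members (red line). Members gather around 0, and the single member beyond -0.6 is Rps20.

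The member beyond 1.5-fold was Rps20, a protein of the small subunit head, at 127 TPM in replicate 1 and 83.6 TPM in replicate 2. Its counts were 2189 and 1522, a log2 ratio of -0.66 (95% exact binomial interval -0.76 to -0.57). The second quantification gave -0.69 and the addition of its copies -0.79, since the pseudogene Gm4332 was also listed lower in replicate 2, at 259 and 35.0 counts. Both transcripts that hold most of its level, Rps20-201 (82.4 and 59.4 TPM) and Rps20-202 (42.0 and 22.8 TPM), are annotated as retained-intron forms. In the second quantification Rps20-201 had 930 and 986 counts and Rps20-202 had 1076 and 387, so that there the difference lay in Rps20-202. Of the cell type marker lists, those of red cells and adipocytes were lower in replicate 2 by the most. The 5 red cell genes summed to 46562 and 23411 TPM and 3 of them differed by 2-fold or more. The 5 adipocyte genes summed to 515 and 270 TPM and 4 of them did. The median log2 ratios of the other lists compared were -0.20 for atrial, -0.19 for fibroblast and -0.14 for macrophage markers. They were 0.10 for endothelial and 0.04 for heart muscle markers. The part of any of these cell types in the result was not tested.

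Other core members moved less. Rps12 had a log2 ratio of -0.39 (interval -0.51 to -0.27), but -0.04 with its copies added and -0.04 in the second quantification. Rpl36a (-0.27), Rpl11 (-0.18) and Rps21 (-0.16) were the next lowest. In the second quantification Rpl36a was at -0.09, Rpl11 at 0.01 and Rps21 at -0.16. Rpl31 was highest at 0.29 (interval 0.21 to 0.37), and 0.15 in the second quantification. Rps7 (0.19), Rpl27 (0.17), Rpsa (0.16) and Rpl29 (0.13) followed. Of these 4, Rpsa and Rpl29 had nearly the same ratio in the second quantification, 0.17 and 0.11, while Rps7 was at 0.05 and Rpl27 at 0.02. Rpl3l itself was at 0.07 (interval 0.01 to 0.12).

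Most members were read from 1 leading transcript. In 75 of the 83 members with a level in both hearts, the leading transcript held over 50% of the gene's TPM in each heart, and in 80 it was the same in both. Coding transcripts held 84.4% and 84.6% of member TPM, retained-intron transcripts 7.05% and 7.08%, processed transcripts without an open reading frame 5.13% and 4.93%, and transcripts marked for nonsense-mediated decay 3.40% and 3.39%. The second quantification placed 69.2% ± 0.291 (SD, n = 2) in coding and 16.3% ± 0.392 (SD, n = 2) in retained-intron transcripts. Only 34 of 83 members had the same leading transcript in both quantifications and both hearts, so that for many the division within a gene depended on the quantification. The most divided members were Rpl13a, with a highest share of 26.8% (Rpl13a-203) and 26.5% (Rpl13a-214), and Rps24, with 28.3% and 39.6% in Rps24-201. Rpl7l1-201 held 46.1% and 41.6%. The leading transcript of Rpl38 held 41.6% in replicate 1 (Rpl38-204) and 50.4% in replicate 2 (Rpl38-202).

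The annotated starts of the leading transcripts were read for the pyrimidine run of this gene class. A start with C and at least 4 further pyrimidines was found in 8 of 83 members (9.64%) and in 2.31% of 10818 other expressed protein-coding genes. At RefSeq starts (GRCm38.p6), 13 of 63 members (20.6%) had one, against 2.37% of 8492 other expressed genes and 2.51% of all 32851 windows. The first 20 bases of 4 members with a run, and of the muscle pair, which had none, are shown 5′ to 3′ with the leading pyrimidines in capitals.
Rpl32: CTTCCTTCTTCCTCggcgct
Rps25: CCTTTTTTTCCgacatctta
Rpl30: CCTTTCTCgctccccggcca
Rpl4: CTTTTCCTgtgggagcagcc
Rpl3: agggggcggagccatcactt
Rpl3l: agctctgtcatttgacctct
They lie at chr6:115808728-115808747 (minus strand), chr9:44407695-44407714 (plus), chr15:34443203-34443222 (minus), chr9:64173375-64173394 (plus), chr15:80083387-80083406 (minus) and chr17:24727820-24727839 (plus), in GENCODE M21 on GRCm38. In replicate 1 the leading transcript was a retained-intron form in 6 members, a processed transcript in 6 and marked for nonsense-mediated decay in 2. An annotated start can lie some bases or many from the true one. That of the leading Rps23 transcript lay 1063 bases from the RefSeq start. A start without a run here says only that these letters were not at the annotated base.

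Of 85 members, 65 had an entry in the RefSeq promoter table (250 bases before to 50 after the start), and 63 of these windows belonged to members at 1 TPM or more. Searched on both strands, CCGGAAG, the core of ETS family sites, was in 36.5% of the 63 windows, in 19.7% of windows of other expressed genes and in 8.86% of all windows. AAGATGGC, a YY1 motif, was in 7.94%, 5.06% and 2.75%. TATAAA, the TATA box, was in 9.52%, 6.56% and 13.6%, and GGGCGG, an SP1 motif, in 60.3%, 67.9% and 35.7%. The first 2 motifs can share the letters AAG where they adjoin. These are descriptions of letters, not of binding.

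Introns of many members hold small nucleolar RNA genes, whose RNAs guide the modification of ribosomal RNA. A snoRNA gene lay inside 30 of the 83 expressed members on the same strand (36.1%, 58 snoRNA genes), against 1.55% of other expressed protein-coding genes. Rpl4 held 5 and Rpl13a 4.

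Some ribosomal proteins carry other symbols. Fau, a ubiquitin-like protein fused to a small subunit protein, was at 189 and 179 TPM, and Rack1, a scaffold on the small subunit, at 146 and 149 TPM.

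The genes that act with ribosomes were all at 1 TPM or more, as were 49.7% of all protein-coding genes. None of those compared was 2-fold apart between hearts, where 1.18% of all 12913 genes compared were. With lists this short, a count of 0 says little about them. The 10 elongation and termination factors had a median of 110 TPM over both hearts. Eef1a2, the muscle and neuron form of the factor that delivers aminoacyl-tRNA, was at 467 and 515 TPM and Eef1a1, the broadly expressed form, at 417 and 369 TPM. Their means in the second quantification were 599 and 542 TPM. Near-identical copies were searched for members only, so the effect of copies on the levels of these factors is not known. Eef2, which moves the ribosome along, was at 357 and 331 TPM. The 26 initiation factors and their partners had a median of 44.8 TPM. Tpt1, whose messenger RNA also starts with a pyrimidine run, was at 946 and 1032 TPM, with a mean of 2045 TPM in the second quantification. Eif1, which helps select the start codon, was at 535 and 522 TPM, with a mean of 822 TPM in the second. Pabpc1, the poly(A)-binding protein, was at 140 and 106 TPM, a log2 ratio of -0.42. The genes that build ribosomes were far lower. The 32 biogenesis factors had a median of 7.47 TPM, from 3.39 TPM for Wdr12 to 50.1 TPM for the nucleolar chaperone Npm1. The 12 genes of RNA polymerase I and its factors had a median of 8.24 TPM. The 16 genes of the mTOR and S6 kinase pathway had a median of 10.4 TPM, with Akt1 highest at 70.2 and 76.8 TPM and Mtor at 16.7 and 16.4 TPM.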

How the data were processed

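Total RNA-seq of 2 mouse hearts was analysed. Per the labels and the deposited notes beside the files, reads were quantified against mm10 with GENCODE M21. The tools used by the authors are not given in the labels or headers. The authors deposited estimated counts and TPM per gene and transcript from a transcriptome alignment, with percent of each gene's level per transcript, and a second set of estimated counts and TPM per transcript made directly from the reads, summed per gene here. Rows of 26248 tRNA genes (3 and 1.85 counts) and spike-ins (0.541% ± 0.0515 of counts, SD, n = 2) were left out of totals.

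Members were matched by gene identifier. Counts were scaled with edgeR 4.0.16 (TMM), with 0.5 counts added and genes at a mean of 1 CPM kept. DESeq2 1.42.0 size factors, total counts and spike-ins were alternatives. The ratio script was tested on simulated data. Copies were found with BLAST 2.17.0. Ratios of pairs used TPM + 0.1. Sequences came from GENCODE M21 and RefSeq (GRCm38.p6).

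Members, lists and tests were chosen with earlier results of these data known. Named were all paralogs and partners, the 10 highest and 10 lowest core members, the 5 core members with the largest ratio between hearts in each direction, the 5 with the largest difference between quantifications in either direction, the 5 with the most divided transcripts, and members with a stated role. Copies and Gm genes were chosen after their values were seen. Some members are not reported here by name or drawn by name, but count in every total.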

Additional observations from a re-analysis of the deposited data

How the results depend on the processing

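The share of gene counts held by the members, 0.658%, was 0.696% in the second quantification, 1.12% of nuclear protein-coding counts, 0.736% with -ps pseudogenes added and 0.840% with near-identical copies added. The median TPM over the members, 167.3 as the mean of both hearts, was 236 in the second quantification, 164.2 with posterior mean TPM, 449 over nuclear protein-coding genes and 206.7 with copies. The coefficient of variation among core members, 0.576, was 0.5004 in the second quantification, 0.543 with -ps pseudogenes and 0.413 with copies. The log2 ratio of Rpl3l over Rpl3, 1.19, was 0.74 in the second quantification, 0.44 with -ps pseudogenes, 0.44 with copies and 0.23 with copies in the second quantification. It was 1.10 or 1.28 with either heart left out. The ratio of Rpl36al over Rpl36a, 0.91, turned to -0.52 with -ps pseudogenes and -0.50 with copies. The members' median ratio between hearts, -0.02, was 0.027 under total counts and -0.17 under spike-ins; the median of all genes moved with it (0.01, 0.06 and -0.13). The count of members 2-fold apart, 0, was 1 with no filter on low counts and 1 at 1.5-fold. The share of member TPM in coding transcripts, 84.5%, was 69.2% in the second quantification. The causes were not tested. No paired analysis was possible because there is 1 group only. The planned identity of paralog proteins was not run, and coding sequences were compared instead. The alternatives with near-identical copies were chosen after seeing the data. Depth limits Rpl10l and Rpl39l, at 0 or 1 counts.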
